A study of Mus musculus with 8 samples.

Results

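Colon of mice carrying Candida tropicalis was compared with colon of mice carrying Candida albicans, across all genes of one table of read counts. The comparison rests on 5 of the 8 libraries of the study, 2 from colonization with C. tropicalis and 3 from colonization with C. albicans, chosen by their labels, and 16107 of 52636 listed genes had enough counts to be tested. All 8 libraries came from colon of wild-type (WT) female mice of the strain C57BL/6 that were germ-free, 6 weeks old and housed in gnotobiotic isolators. One group received the strain SC5314 of C. albicans by oral gavage, another received the strain MYA-3404 of C. tropicalis, each at 100000000 colony-forming units, and 3 control libraries carried no yeast. Colon of every group, the control included, was collected at 30 days. The labels number the libraries and do not say that each is a separate mouse, so each p-value reflects how far libraries of a group vary, some of which may be technical. Isolator and collection session are not in the labels and cannot be told apart from the yeast given.

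C. albicans and C. tropicalis are related yeasts that can live in the mammalian gut without invading it. The colon wall holds an epithelium that absorbs salt and water and secretes mucus, a connective tissue with immune cells and vessels beneath it, and outer layers of smooth muscle with the enteric nervous system between them. Bulk RNA mixes all of these, so fewer cells of a type and less RNA per cell cannot be told apart in any value given here. Expression along the colon is graded: genes at the 5′ ends of the Hox clusters, such as Hoxd13 and Hoxb13, are most active towards its far end, and many transporters, mucins and hormones have a gradient of their own.

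The libraries held 16195376 to 19761098 counts. On the first principal component of all 8 libraries, which carried 48.7% of the variance, both C. tropicalis libraries lay at one end (53.6 and 46.4) and C. albicans 2 and 3 towards the other (-67.0 and -43.2), with C. albicans 1 between them at -3.19. Control 3 lay beside the C. tropicalis libraries at 43.3, and control 1 beside C. albicans at -39.9. A few markers were set beside the label of the tissue. Slc26a3, the chloride-bicarbonate exchanger of the colon surface, was measured at 1044 to 1204 CPM (counts scaled to library size) in C. albicans and 887 to 1035 CPM in C. tropicalis. The Paneth cell defensins Defa24 and Defa17 had 0 counts in all 8 libraries. That allows up to 0.185 CPM in the shallowest library. Other genes listed for small intestine or caecum were present, and 10 of 16 listed were tested, 5 higher in C. tropicalis and 5 lower. Their summed levels were 334 to 537 CPM in C. albicans and 233 to 294 CPM in C. tropicalis. Rbp2, among the higher, stood at 37.9, 21.6 and 29.3 CPM against 68.0 and 77.3 CPM.

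No gene passed the threshold, an adjusted p of 0.05 over all genes tested in edgeR's quasi-likelihood test, and the smallest adjusted p was 0.0646, shared by 226 genes. The count of 0 stands for 0% of genes, while the unadjusted p was below 0.05 for 3744 genes (23.2%), 1423 higher (8.83%) and 2321 lower (14.4%). About 805 would be so by chance. At an adjusted p under 0.1, a looser threshold planned beside the main one, 343 genes were higher in C. tropicalis (2.13%) and 1138 were lower (7.07%), 9.19% in all. These counts are given as a background for the gene groups below, and no gene is called changed. The count at 0.05 depended on the tool and on single libraries. DESeq2 called 1753 genes, and edgeR called 1315 without C. albicans 1, 925 without control 1, 897 without control 3 and 858 on the 5 libraries alone, while limma-voom and leaving out any of the other 5 libraries gave 0.

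The libraries of the species were apart, with both C. tropicalis values above or below all 3 C. albicans values, for 7390 genes (45.9%), 3777 higher (23.4%) and 3613 lower (22.4%). Large differences were mostly towards lower levels in C. tropicalis: 1830 genes (11.4%) were at least 2-fold lower and 547 (3.4%) at least 2-fold higher. The median log2 fold change of all genes, C. tropicalis over C. albicans, was 0.04, and 53.7% of genes had a value above 0. Control 3 lay nearer to the C. tropicalis mean than to the C. albicans mean for 801 of the 1138 lower genes (70.4%), against 55.2% of all genes. For control 1 and 2 the same shares were 24.1% and 42.3% of the lower genes, against 40.6% and 49.7% of all genes. For the 343 higher genes the share lay below that of all genes in each control, at 30.9%, 34.4% and 46.4% in control 1, 2 and 3.

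The 10 genes with the smallest p among those higher in C. tropicalis, and the 10 among those lower, all had an adjusted p of 0.0646 and are named as not passing. Fmo2, a flavin-containing monooxygenase of drug and xenobiotic metabolism (ENSMUSG00000040170, on GRCm38 at chr1:162874317-162898726), was measured at 27.9, 24.3 and 29.1 CPM in C. albicans and at 60.8 and 80.5 CPM in C. tropicalis, with 18.2, 21.3 and 26.1 CPM in controls. Both C. tropicalis libraries lay above the other 6, at a log2 difference of 1.38 ± 0.18 (SE) from C. albicans. Against the same controls, Fmo2 stood at a log2 difference of 1.69 with C. tropicalis (adjusted p = 0.0389) and 0.31 with C. albicans (adjusted p = 0.394).

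S100a14, of the S100 family of epithelia, was measured at 39.5, 46.0 and 40.7 CPM in C. albicans and 139 and 147 CPM in C. tropicalis, a log2 difference of 1.76 ± 0.26. Anxa8 stood at 22.9, 29.4 and 32.1 CPM against 70.2 and 62.2 CPM (1.24 ± 0.18 in log2), and Anxa1, an annexin that limits inflammation, at 149, 172 and 159 CPM against 280 and 271 CPM (0.78 ± 0.12 in log2). For all 3 the controls lay with or near C. albicans, at 36.3 to 76.3, 23.1 to 30.3 and 157 to 164 CPM in turn.

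Trpv6, the calcium channel of absorbing epithelia, had the widest gap of the 20 genes. It was measured at 0.337, 0.262 and 0.061 CPM in C. albicans and at 5.77 and 7.20 CPM in C. tropicalis, a log2 difference of 4.81 ± 0.85 that rests on few reads in C. albicans. Control 3, at 2.53 CPM, lay above the other controls (0.343 and 0.477 CPM). Fabp6, the bile acid carrier of enterocytes, stood at 1.85, 1.57 and 1.52 CPM against 4.63 and 10.6 CPM, with a log2 difference of 2.20 that ran from 1.48 to 2.68 as each library was left out. The other 4 were Pik3r3 (a regulatory subunit of phosphoinositide 3-kinase), Elovl7 (a fatty acid elongase), Ifrd1 (a transcriptional co-regulator) and AI506816, with log2 differences from 0.75 to 0.88.

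Of the 10 genes lower in C. tropicalis, Klhl29 (a kelch-like protein, ENSMUSG00000020627, chr12:5077472-5375682) had the smallest p. Its levels were 12.2, 22.7 and 19.0 CPM in C. albicans, 3.48 and 3.34 CPM in C. tropicalis and 6.37 to 7.37 CPM in controls, so the species lay on either side of the controls. The log2 difference between them was -2.39 ± 0.29. Inhbb, which encodes a subunit of activins and inhibins, had the same order: 6.01, 5.62 and 8.05 CPM in C. albicans, 1.97 to 2.90 CPM in controls and 1.20 and 0.963 CPM in C. tropicalis, a log2 difference of -2.59 ± 0.33.

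Il4ra, the receptor chain shared by interleukin 4 and interleukin 13 (ENSMUSG00000030748, chr7:125552120-125579474), was measured at 45.2, 55.7 and 48.0 CPM in C. albicans and at 23.5 and 25.3 CPM in C. tropicalis, with controls at 39.3, 41.3 and 39.7 CPM. The log2 difference was -1.02 ± 0.13, and it stayed between -1.12 and -0.94 as each library was left out. The controls lay between the species, nearer to C. albicans, and did not overlap either.

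Jph3 and Jph4, the junctophilins that tie the endoplasmic reticulum to the cell membrane, stood at 4.83 to 7.72 and 18.8 to 32.0 CPM in C. albicans and at 1.03 to 1.42 and 8.90 to 9.25 CPM in C. tropicalis. Basp1, a protein of nerve terminals, stood at 18.4, 21.9 and 23.9 CPM against 8.28 and 7.25 CPM, and Ntn1, the guidance factor netrin-1, at 53.8, 60.9 and 60.2 CPM against 31.9 and 26.7 CPM. B4galnt1, an enzyme of ganglioside synthesis, stood at 151, 219 and 198 CPM against 23.2 and 20.1 CPM, a log2 difference of -3.13 ± 0.47, with controls spread from 43.3 CPM in control 3 to 149.5 CPM in control 1. Igdcc4 and Mtss1l completed the list, at log2 differences of -1.24 and -1.78.

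**Figure D1:**
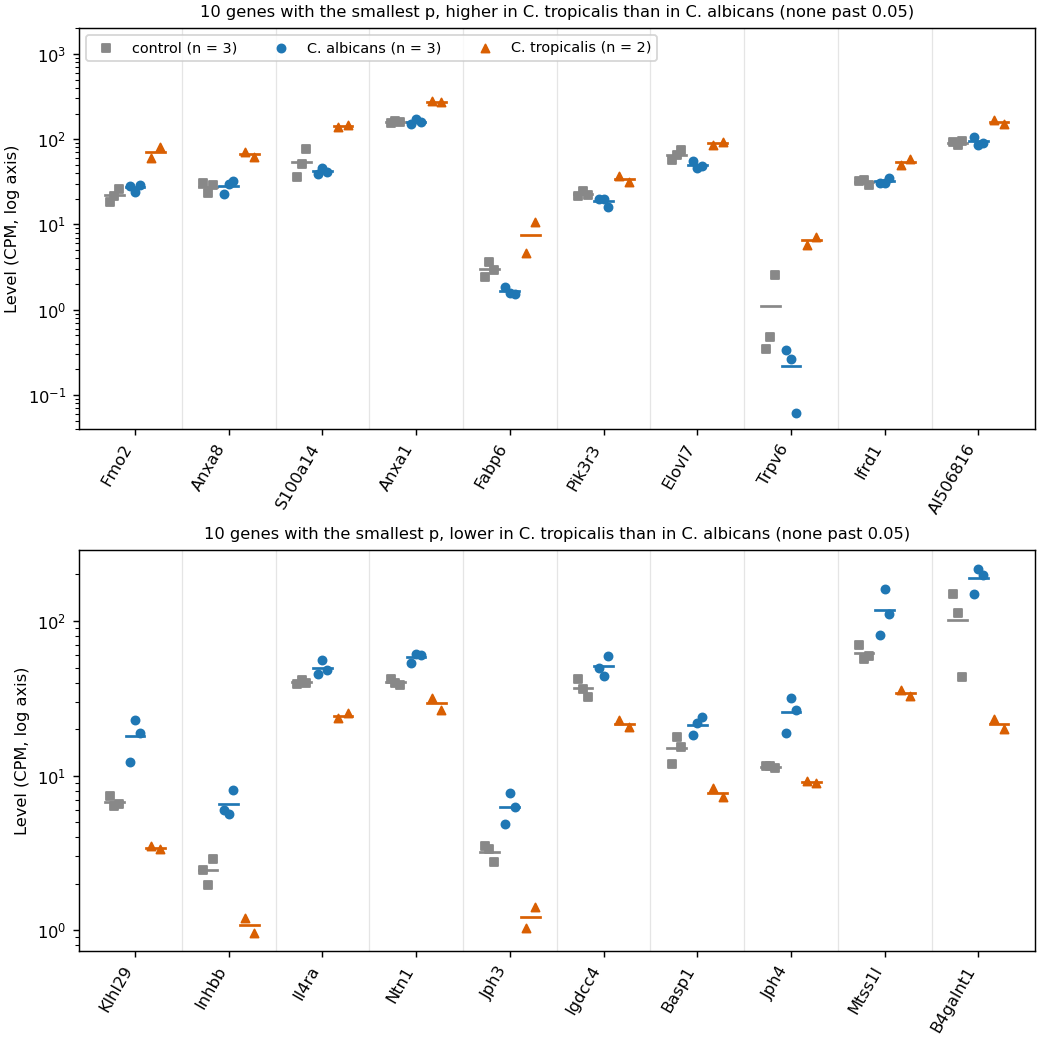
Levels in CPM (log axis) of the 10 genes with the smallest p higher in C. tropicalis (upper panel) and the 10 lower (lower panel). Each point is 1 library (squares, control; circles, C. albicans; triangles, C. tropicalis) and each short line a group mean. In every gene the 2 triangles lie apart from the 3 circles, and none of the 20 genes passed an adjusted p of 0.05.

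In all, 44 lists of genes for cell types and pathways were described by the median log2 fold change of their tested members, beside 0.04 for all genes. The lists with the lowest medians belonged to muscle, attached fat and enteric nerves and to tuft cells, and those with the highest, apart from a list with 1 tested member, to B cells, the cell cycle and squamous keratins. No list held a gene past the threshold.

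**Figure D2:**
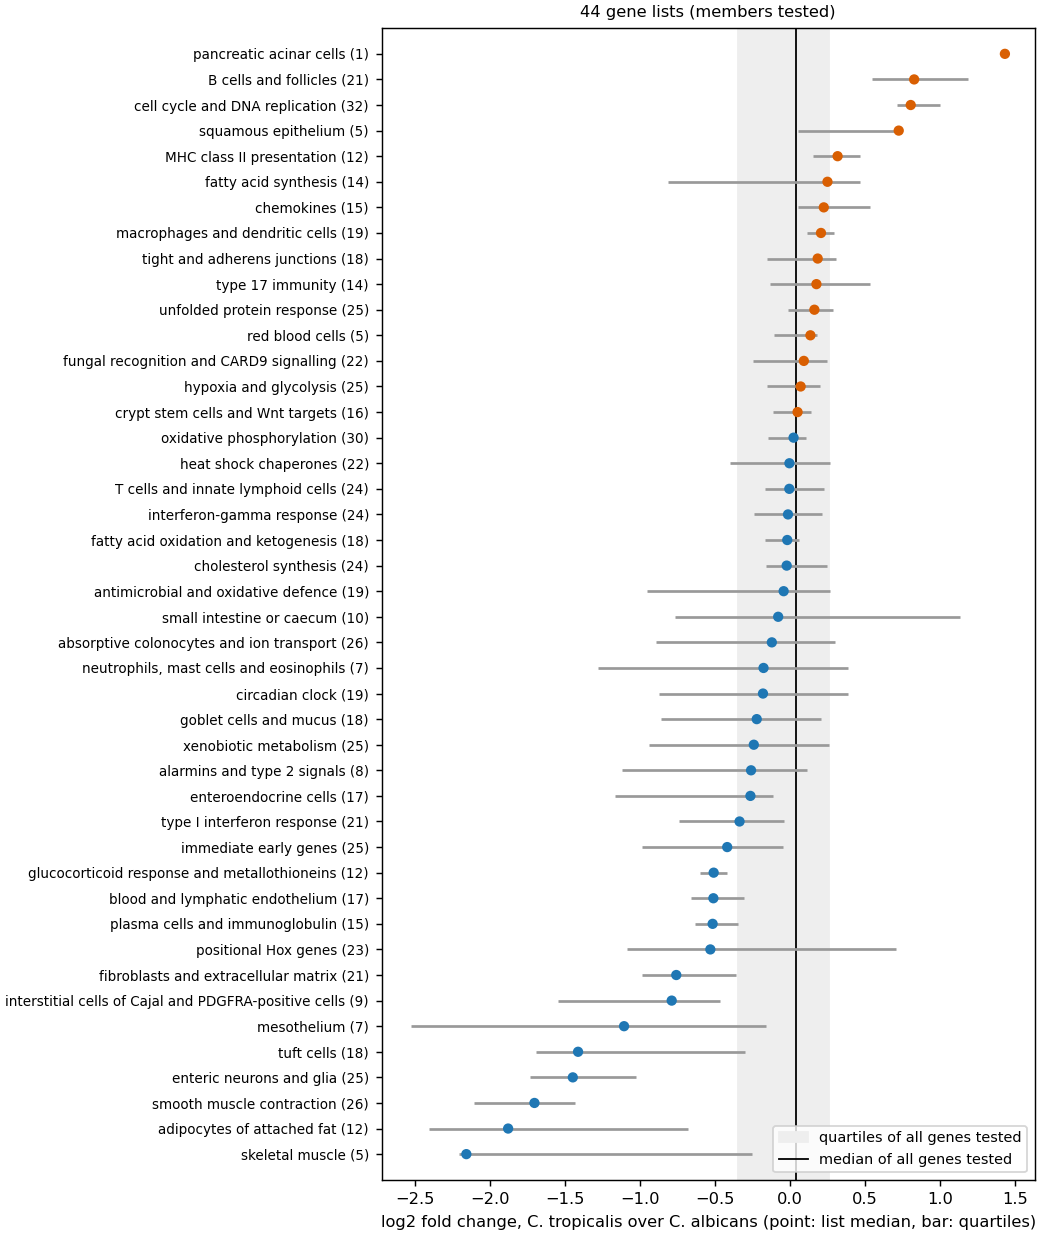
Median (points) and quartiles (bars) of the log2 fold change, C. tropicalis over C. albicans, of the tested members of 44 gene lists, with the number of members tested in brackets. The line and the grey band give the median and quartiles of all 16107 genes. Smooth muscle (-1.70) and enteric neurons and glia (-1.45) lie far to the left, and the cell cycle (0.81) and B cells (0.83) to the right.

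Smooth muscle genes were lower in C. tropicalis. All 26 tested members of 27 listed had a log2 fold change below 0 (background 46.3%), with a median of -1.70. The libraries were apart and lower for 25 (background 22.4%), and 22 had an adjusted p under 0.1 (background 7.07%). Summed over the list, levels were 15860 to 43674 CPM in C. albicans, 7001 to 8969 CPM in C. tropicalis and 11698 to 21385 CPM in controls. Actg2, the enteric smooth muscle actin, was measured at 2029, 6498 and 3268 CPM in C. albicans and 607 and 796 CPM in C. tropicalis, a log2 difference of -2.49 ± 0.48 (adjusted p = 0.0646). Des, the muscle intermediate filament desmin, stood at 2184, 6517 and 3674 CPM against 709.6 and 848 CPM, and Cnn1, the actin-binding calponin, at 1237, 3680 and 1917 CPM against 366 and 477 CPM. Kcnmb1, a subunit of the calcium-activated potassium channel of smooth muscle, stood at 21.3, 41.3 and 28.4 CPM against 10.4 and 10.8 CPM. In each of the 4 genes C. albicans 2 was the highest of all 8 libraries, and without 1 library the Actg2 difference ran from -2.84 to -1.92.

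Genes of the enteric nervous system had the same direction. All 25 members had a log2 fold change below 0 (background 46.3%), with a median of -1.45. The libraries were apart and lower for 23 (background 22.4%), and 12 had an adjusted p under 0.1 (background 7.07%). Ret, the receptor on which enteric neurons depend, was measured at 20.3, 36.6 and 26.2 CPM in C. albicans and 9.37 and 8.50 CPM in C. tropicalis, a log2 difference of -1.63 ± 0.29 (adjusted p = 0.0646). Foxd3, of neural crest and glia, stood at 6.75, 14.9 and 11.2 CPM against 3.08 and 3.85 CPM, and Tubb3, the neuronal tubulin, at 18.9, 42.3 and 25.5 CPM against 6.05 and 11.4 CPM. Phox2a, a transcription factor of autonomic neurons, stood at 3.32, 9.45 and 6.77 CPM against 1.48 and 1.47 CPM. Controls lay between the species for Ret (13.2 to 21.1 CPM), overlapping C. albicans 1.

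Among the pacemaker and PDGFRA-positive cells that lie between nerve and muscle, 7 of 9 tested members were below 0 (median -0.79). The other 2 were above 0, and for 1 of these the libraries were apart and higher (background 23.4%). The summed level ran the other way from the median, at 650 to 864 CPM in C. albicans, 1067 to 1151 CPM in C. tropicalis and 684 to 947 CPM in controls. Kit, the receptor that marks interstitial cells of Cajal, stood at 58.0, 96.5 and 78.2 CPM in C. albicans and 24.6 and 28.6 CPM in C. tropicalis (log2 difference -1.54 ± 0.37, adjusted p = 0.0676), and Gucy1a1, the nitric oxide receptor subunit, at 12.9, 21.7 and 14.2 CPM against 5.37 and 5.84 CPM. Etv1 and Kcnn3 had log2 differences of -1.74 and -1.77, with adjusted p of 0.0745 and 0.0676. These 4 were the members under 0.1, all of them lower (background 7.07%).

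Connective tissue and vessel genes were lower by less. Of 21 fibroblast and matrix genes, 18 were below 0 (median -0.76) and 10 were lower at an adjusted p under 0.1 (background 7.07%). Fn1, the matrix protein fibronectin, stood at 482, 784 and 674 CPM in C. albicans and 278 and 222 CPM in C. tropicalis (log2 difference -1.37 ± 0.25, adjusted p = 0.0646), and Fbn1, Col5a1 and Col5a2, which encode fibrillin and collagen V chains, had log2 differences from -1.07 to -0.98. Of 17 endothelial genes, 14 were below 0 (median -0.51) and 4 were lower at an adjusted p under 0.1 (background 7.07%). Kdr, the receptor for vascular endothelial growth factor, stood at 22.9, 24.2 and 25.8 CPM against 15.0 and 12.1 CPM. The others under 0.1 were Vwf, Eng and Plvap, at log2 differences of -0.76, -0.92 and -0.80.

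Markers of tissue around the colon differed among themselves. All 12 tested adipocyte genes were below 0 (median -1.88), and 3 had an adjusted p under 0.1 (background 7.07%). These were Lpl, lipoprotein lipase, Cidec, of lipid droplets, and Adrb3. Cidec stood at 15.0, 43.7 and 18.2 CPM in C. albicans, 1.43 and 4.76 CPM in C. tropicalis and 8.40 to 34.9 CPM in controls. Adipoq, the adipocyte hormone adiponectin, stood at 0.0571 and 1.59 CPM in C. tropicalis and from 0.0571 to 14.5 CPM in the controls, and its species overlapped. Of 7 mesothelial genes 5 were below 0 (median -1.11) with none under 0.1. The libraries were apart and lower for 3 (background 22.4%) and apart and higher for 2, near the share of all genes (background 23.4%). Their summed level, most of it from the keratin Krt19 that epithelium also expresses, was higher in C. tropicalis (4999 to 5230.5 CPM) than in C. albicans (3829 to 4435 CPM) or controls (3318 to 4364 CPM). Of 5 tested genes of skeletal muscle 4 were below 0 (median -2.16), with Acta1, which smooth muscle can also express, at 23.7, 31.3 and 51.1 CPM against 3.94 and 3.85 CPM and Myh4, a myosin of fast skeletal muscle, at 0 counts in all 8 libraries.

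Smooth muscle RNA also varied between libraries of 1 group. The smooth muscle score, the mean log2 CPM of the list centred over the 8 libraries, was -0.02, 1.36 and 0.62 in C. albicans, -1.07 and -0.85 in C. tropicalis, and 0.46, 0.06 and -0.55 in control 1, 2 and 3. With this score as a covariate 988 genes had an unadjusted p under 0.05 instead of 3744, and the medians of the smooth muscle and nerve lists stood at -0.02 and -0.10. The smooth muscle median of -0.02 was set in advance, since the score is the mean of those same genes. The score tracks the species, so such a fit takes part of any species difference with it, and how much muscle each piece of tissue held was not measured apart from these genes.

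**Figure D3:**
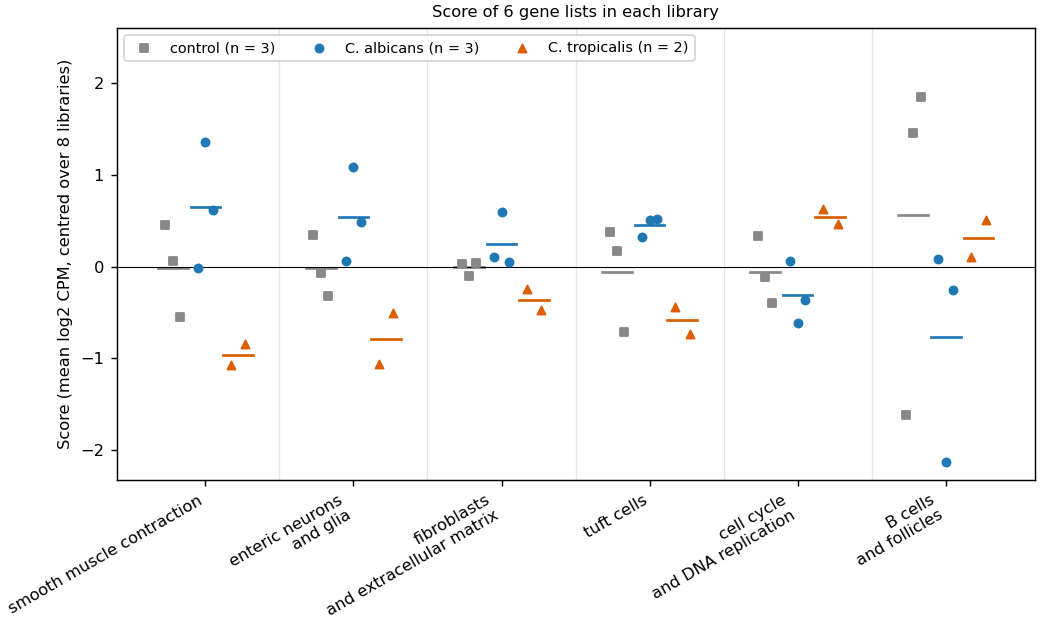
Score of 6 gene lists in each library (mean log2 CPM of the members, centred over the 8 libraries). Symbols are as in the plot of the 20 genes and lines are group means. The muscle, nerve and matrix scores are lowest in the 2 C. tropicalis libraries among the 5 colonized, the cell cycle score is highest in them, and the 3 control squares are spread over much of the range for muscle, tuft cells and B cells.

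Genes of DNA replication and mitosis were higher in C. tropicalis. All 32 members had a log2 fold change above 0 (background 53.7%), with a median of 0.81. The libraries were apart for 28 (background 23.4%), and 9 had an adjusted p under 0.1 (background 2.13%). Rrm1, the large subunit of ribonucleotide reductase, was measured at 32.7, 22.05 and 27.7 CPM in C. albicans and 59.6 and 55.9 CPM in C. tropicalis, a log2 difference of 1.07 ± 0.20 (adjusted p = 0.0646). Its small subunit Rrm2 stood at 11.7, 8.82 and 10.2 CPM against 23.4 and 21.8 CPM, and Tyms, thymidylate synthase, at 23.4, 15.6 and 19.4 CPM against 33.2 and 32.7 CPM. Mcm7, of the replicative helicase, stood at 51.8, 35.7 and 52.7 CPM against 73.4 and 81.8 CPM, though its reads cannot be told apart from those of Cops6 where the genes overlap on opposite strands.

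Control values for these genes lay between the species or within the range of C. albicans: Rrm1 at 44.5, 36.8 and 29.6 CPM and Rrm2 at 17.6, 13.0 and 9.57 CPM in control 1, 2 and 3. Control 3, which lay beside C. tropicalis on the first component, was thus the lowest control for both. The list median was 0.72 in a fit that includes the smooth muscle score, 1.01 with a Hoxd score and 0.88 with a correction for GC content. In these edgeR fits the adjusted p of Rrm1 and of Rrm2 was 0.780, 0.447 and 0.0883 in turn. The part of tissue make-up or position in this difference was not tested.

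Secretory and sensory cells of the epithelium had lower levels of several marker genes in C. tropicalis. Of 18 tuft cell genes 16 were below 0 (median -1.41), 4 of them with an adjusted p under 0.1 (background 7.07%). The libraries were apart and lower for 13 (background 22.4%). Trpm5, the cation channel of chemosensory cells, was measured at 24.1, 24.6 and 28.4 CPM in C. albicans and 5.60 and 4.48 CPM in C. tropicalis (log2 difference -2.35 ± 0.61, adjusted p = 0.0758). Sh2d6 stood at 14.5, 18.2 and 18.9 CPM against 3.31 and 2.10 CPM. Control 3 lay with C. tropicalis for Trpm5 (4.14 CPM) and Sh2d6 (2.69 CPM). Control 1 and 2 lay nearer to C. albicans for Trpm5 (25.5 and 18.4 CPM), while for Sh2d6 they stood at 14.8 and 6.49 CPM. Hpgds, the synthase of prostaglandin D, was the member under 0.1 in the other direction, at 9.67, 5.14 and 6.71 CPM against 16.3 and 15.3 CPM.

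Most genes of enteroendocrine cells were lower in C. tropicalis: of 17, 13 were below 0 (median -0.26), and 3 of these had an adjusted p under 0.1 (background 7.07%). The libraries were apart and lower for 10 (background 22.4%), and apart and higher for 0 (background 23.4%). Gcg, the precursor of glucagon-like peptides, stood at 101, 74.9 and 77.9 CPM in C. albicans and 19.99 and 26.7 CPM in C. tropicalis, a log2 difference of -1.86 ± 0.45 (adjusted p = 0.0694). Cck, cholecystokinin, stood at 5.62, 9.97 and 7.99 CPM against 0.343 and 0.170 CPM, with control 1, 2 and 3 at 6.74, 5.66 and 0.108 CPM. Sst, somatostatin, stood at 21.02, 32.9 and 23.05 CPM against 11.1 and 13.3 CPM.

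Goblet cell genes had a median of -0.22, with 12 of 18 below 0 (background 46.3%). Only 1 was lower at an adjusted p under 0.1, a count near the share of all genes (background 7.07%). That gene was Spdef, a transcription factor of goblet cell maturation, at 128, 262 and 225 CPM in C. albicans and 108 and 78.0 CPM in C. tropicalis (log2 difference -1.14 ± 0.30, adjusted p = 0.0758). Muc2, the main secreted mucin, stood at 4124, 6397 and 4800 CPM against 2837 and 2425 CPM, a log2 difference of -0.96 ± 0.31 (adjusted p = 0.111). Retnlb, a secreted protein of goblet cells with antibacterial activity, stood at 1.07, 24.6 and 20.5 CPM against 0.0571 and 0.567 CPM. B3gnt6, which builds mucin sugar cores, stood at 3.99, 47.5 and 22.7 CPM against 0.286 and 0.340 CPM. For both genes C. albicans 1 and control 2 and 3 lay far below C. albicans 2 and 3, and control 1 (5.48 and 27.6 CPM) stood between or with them.

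Absorptive colonocyte genes were split, with 12 of 26 above 0 and 14 below (median -0.12). At an adjusted p under 0.1, 4 were higher (background 2.13%) and 5 were lower (background 7.07%). Slc9a3, the sodium-hydrogen exchanger of the brush border, had the widest difference of any gene named here. It was measured at 1052, 1517 and 1843 CPM in C. albicans and 12.5 and 10.2 CPM in C. tropicalis, a log2 difference of -7.02 ± 1.59 (adjusted p = 0.0669). Control 1, 2 and 3 stood at 1117, 284 and 13.6 CPM, so the controls spanned nearly the whole range. In the other direction, Scnn1g, a subunit of the epithelial sodium channel, stood at 26.6, 4.72 and 8.29 CPM against 211 and 140.4 CPM, with controls at 12.4, 32.9 and 83.6 CPM. Car1, carbonic anhydrase 1, stood at 306, 432 and 179.5 CPM in C. albicans, 2231 and 2255 CPM in C. tropicalis and 243, 388 and 1602 CPM in control 1, 2 and 3. Slc4a4, a sodium bicarbonate cotransporter, stood at 48.5, 28.2 and 33.8 CPM against 89.7 and 75.9 CPM.

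Genes that place tissue along the gut differed in both directions. For Hoxd13 and Cdx2, control 3 was the control nearest to C. tropicalis. Hoxd13, chosen for print after its values were seen like Hoxd11, Hoxd12, Hoxa13 and Hoxb13, stood at 17.9, 1.99 and 22.8 CPM in C. albicans and 300.3 and 220.1 CPM in C. tropicalis, and at 5.94, 17.04 and 188 CPM in control 1, 2 and 3. Its log2 difference was 4.20 ± 1.31 (adjusted p = 0.106). Hoxd10, Hoxd11 and Hoxd12 had log2 differences of 2.95, 2.99 and 2.52, with adjusted p of 0.0937, 0.153 and 0.230, and Hoxb13 stood at 561, 155 and 335 CPM against 1035 and 960.5 CPM (adjusted p = 0.162). Cdx2, a homeobox gene that specifies intestinal epithelium, ran the other way from Hoxd13. It stood at 224, 470.1 and 378 CPM in C. albicans, 26.3 and 28.6 CPM in C. tropicalis and 339, 192 and 26.9 CPM in controls. The log2 difference of Cdx2 was -3.70 ± 0.89 (adjusted p = 0.0690). Hoxa7, Hoxa13 and Hoxb6 had log2 differences of -0.79, -0.47 and -1.59, where reads of Hoxb6 (640 counts) and Hoxa7 (6094 counts) cannot be told apart from those of Hoxb5os (688 counts) and Hoxaas3 (550 counts) on the other strand.

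Of the 23 tested positional genes 14 were below 0 (median -0.53). At an adjusted p under 0.1, 1 was higher (background 2.13%) and 4 were lower (background 7.07%). A Hoxd score, the mean centred log2 CPM of Hoxd10 to Hoxd13, was -0.52, -3.14 and -0.26 in C. albicans, 2.52 and 1.79 in C. tropicalis and -2.04, -0.36 and 2.01 in control 1, 2 and 3. With that score as a covariate, an alternative chosen after seeing the data, no gene had an adjusted p under 0.1 and 1658 had an unadjusted p under 0.05. The log2 difference of Slc9a3 was then -4.01 and that of Car1 1.68. The labels give no position along the colon for any library, and the part of position in the results was not tested.

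**Figure D4:**
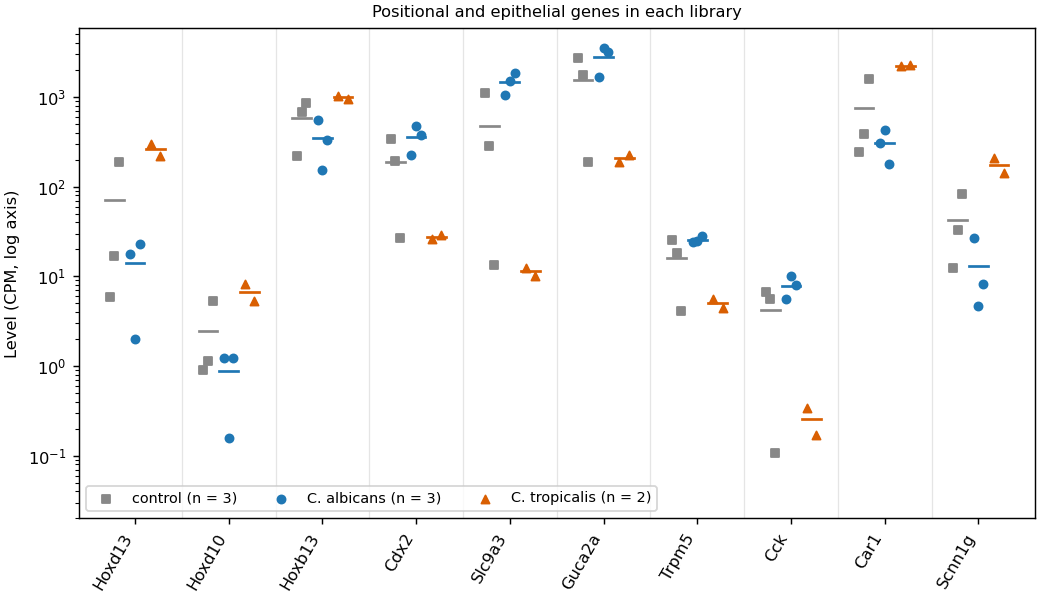
Levels in CPM (log axis) of positional genes (Hoxd13 to Cdx2) and epithelial genes (Slc9a3 to Scnn1g) in each library. Points are libraries and lines group means. Control 3, the square at 188 CPM for Hoxd13 and 13.6 CPM for Slc9a3, lies near the 2 C. tropicalis triangles in most of the 10 genes.

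Squamous keratins, which can mark tissue from the anal margin, had 5 of 14 genes tested, 4 above 0 and 1 below (median 0.73). Krt14 stood at 1.01, 0.997 and 1.95 CPM in C. albicans and 4.74 and 3.57 CPM in C. tropicalis (log2 difference 1.65 ± 0.39, adjusted p = 0.0682). Sprr1a, of the cornified envelope, was the member below 0, at 1.1804, 5.93 and 2.74 CPM against 0.914 and 1.19 CPM (-1.64 ± 0.65, adjusted p = 0.177). Krt5, the partner of Krt14, had 24 counts and Trp63, the regulator of squamous basal cells, 4 counts in all 8 libraries together, and Sprr3 had 0. Summed over the list, the levels were 9.39 to 15.3 CPM in C. albicans, 15.1 to 15.6 CPM in C. tropicalis and 10.1 to 11.5 CPM in controls. Of 8 pancreatic genes only Cela1, an elastase, was tested, at 279, 144 and 184 CPM against 543 and 551 CPM (log2 difference 1.43 ± 0.48, adjusted p = 0.123). The other 7 had at most 44 counts over the 8 libraries.

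The circadian clock is a loop in which BMAL1 (encoded by Arntl) and CLOCK drive Per, Cry, Nr1d1, Dbp and Ciart through E-box sequences, and the products of Per, Cry and Nr1d1 act back on it. Clock genes differed between the species in both directions: 8 of 19 were above 0 and 11 below (median -0.18). At an adjusted p under 0.1, 3 were higher (background 2.13%) and 5 were lower (background 7.07%). The promoters of 2 clock genes are shown, 250 bases before to 50 after the RefSeq start on GRCm38.p6. Dbp had the smallest p of the list, and Ciart was added after the search because it holds the motif. Capitals mark the E-box CACGTG, searched on both strands.
Dbp (chr7:45704997-45705296, plus strand): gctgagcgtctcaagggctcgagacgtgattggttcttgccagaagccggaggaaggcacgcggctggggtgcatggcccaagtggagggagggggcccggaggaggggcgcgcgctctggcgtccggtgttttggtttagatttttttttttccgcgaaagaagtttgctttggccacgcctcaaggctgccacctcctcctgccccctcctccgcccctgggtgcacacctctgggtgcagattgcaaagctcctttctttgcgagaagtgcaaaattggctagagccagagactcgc
Ciart (chr3:95882179-95882478, minus strand): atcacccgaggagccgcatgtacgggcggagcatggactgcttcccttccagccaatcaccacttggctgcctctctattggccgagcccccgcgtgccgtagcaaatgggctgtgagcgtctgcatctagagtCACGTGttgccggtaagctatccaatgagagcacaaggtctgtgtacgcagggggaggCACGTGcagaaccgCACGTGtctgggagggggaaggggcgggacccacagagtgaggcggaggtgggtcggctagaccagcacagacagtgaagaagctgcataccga
The Ciart window held 3 E-boxes and the Dbp window none. Of 16 clock genes with a promoter entry, 5 held the E-box (31.2%), namely Per1, Cry1, Tef, Bhlhe41 and Ciart, against 9.77% of the promoters of 11865 tested genes. Per3 held the D-box TTATGTAA, which 0.565% of the tested genes held. A match of letters is a description of the window only.

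Dbp, a bZIP factor of clock output, was measured at 178, 168 and 161 CPM in C. albicans and 48.7 and 29.5 CPM in C. tropicalis, with controls at 24.6 to 61.0 CPM. The log2 difference of -2.11 ± 0.36 (adjusted p = 0.0646) thus set C. albicans apart from the other 5 libraries. Reads of Dbp cannot be told apart from those of Sphk2 on the other strand where they overlap. Ciart, a repressor of BMAL1 and CLOCK, stood at 29.6, 27.2 and 31.3 CPM against 13.0 and 12.1 CPM, with controls at 2.90 to 6.25 CPM, so C. tropicalis lay between controls and C. albicans (log2 difference -1.22 ± 0.28, adjusted p = 0.0669).

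Arntl ran the other way, at 14.1, 12.5 and 12.6 CPM in C. albicans, 23.5 and 21.3 CPM in C. tropicalis and 37.4 to 48.2 CPM in controls, a log2 difference of 0.77 ± 0.15 (adjusted p = 0.0646). Again C. tropicalis lay between the other groups, with no overlap. Nr1d1, the nuclear receptor REV-ERB alpha that represses Arntl, had another order: 248, 188 and 159 CPM in C. albicans, 116 to 161 CPM in controls and 91.9 and 49.1 CPM in C. tropicalis, the lowest group (log2 difference -1.49 ± 0.30). The hour of collection is not in the labels and cannot be told apart from the yeast given.

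Stress genes were split. Of 22 heat shock chaperones 11 were above 0 and 11 below, and 4 were lower at an adjusted p under 0.1 (background 7.07%). Hspb1, a small heat shock protein that is abundant in muscle and epithelium, was measured at 399, 650.3 and 437 CPM in C. albicans and 116 and 118 CPM in C. tropicalis, with controls at 209.6 to 465 CPM (log2 difference -2.08 ± 0.35, adjusted p = 0.0646). Hspa1a and Hspa1b, the inducible HSP70 genes whose near-identical sequences share reads, stood at 254, 377 and 168 CPM and 632, 1123 and 520.0 CPM in C. albicans. In C. tropicalis they stood at 113 and 31.2 CPM and at 325 and 90.7 CPM, in controls at 23.9 to 28.6 and 65.3 to 87.1 CPM. C. tropicalis 1 thus lay far above C. tropicalis 2 for both genes, and the log2 difference of Hspa1a ran from -3.09 to -1.24 as each library was left out. Cryab, another small heat shock protein of muscle, had a log2 difference of -1.32, which was 0.05 with the smooth muscle covariate.

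For comparison, the promoter of Hspb1, the member with the smallest p, held no full match to a heat shock element. The element was searched on either strand as GAA, TTC and GAA in a row with any 2 bases between neighbours. Partial matches were not searched, so an element that departs from these letters is not excluded. That of Myl9, a smooth muscle myosin light chain added after the search, held a CArG box, the site of serum response factor, in capitals.
Hspb1 (chr5:135887669-135887968, plus strand): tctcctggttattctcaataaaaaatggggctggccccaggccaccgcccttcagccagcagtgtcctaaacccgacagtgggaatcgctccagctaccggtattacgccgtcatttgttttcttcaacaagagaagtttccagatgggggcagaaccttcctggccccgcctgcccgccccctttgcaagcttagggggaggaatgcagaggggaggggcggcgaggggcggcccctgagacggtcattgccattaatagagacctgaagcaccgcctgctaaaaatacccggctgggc
Myl9 (chr2:156775214-156775513, plus strand): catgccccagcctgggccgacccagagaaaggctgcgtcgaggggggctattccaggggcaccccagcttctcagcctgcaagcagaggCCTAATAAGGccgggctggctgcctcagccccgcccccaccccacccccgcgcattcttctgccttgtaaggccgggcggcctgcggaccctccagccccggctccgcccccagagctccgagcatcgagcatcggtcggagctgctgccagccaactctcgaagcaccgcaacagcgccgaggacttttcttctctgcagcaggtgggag
Full matches to the heat shock element stood in 3 of 17 chaperone promoters (17.6%, in Hsph1, Hspe1 and Chordc1) against 0.396% of tested genes. CArG boxes stood in 2 of 22 smooth muscle promoters (9.09%; Myl9 and Ldb3) against 1.33%.

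Immediate early genes, which respond within minutes to stimulation and handling, were mostly lower in C. tropicalis, with 19 of 25 below 0 (median -0.42). At an adjusted p under 0.1, 1 was higher (background 2.13%) and 3 were lower (background 7.07%). Fos stood at 194, 201 and 214 CPM in C. albicans and 93.5 and 94.3 CPM in C. tropicalis, a log2 difference of -1.11 ± 0.18 (adjusted p = 0.0646), with controls at 97.3 to 146 CPM. Jun and Egr1 had log2 differences of -0.68 and -1.46, with adjusted p of 0.0910 and 0.0938. With a correction for GC content the list median was -0.08. Of 12 tested genes of the glucocorticoid response and metallothioneins 10 were below 0 (median -0.51). Only 1 was lower at an adjusted p under 0.1, a count near the share of all genes (background 7.07%). It was Sult1a1, a sulfotransferase, at 266, 342 and 277 CPM against 157 and 173 CPM.

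**Figure D5:**
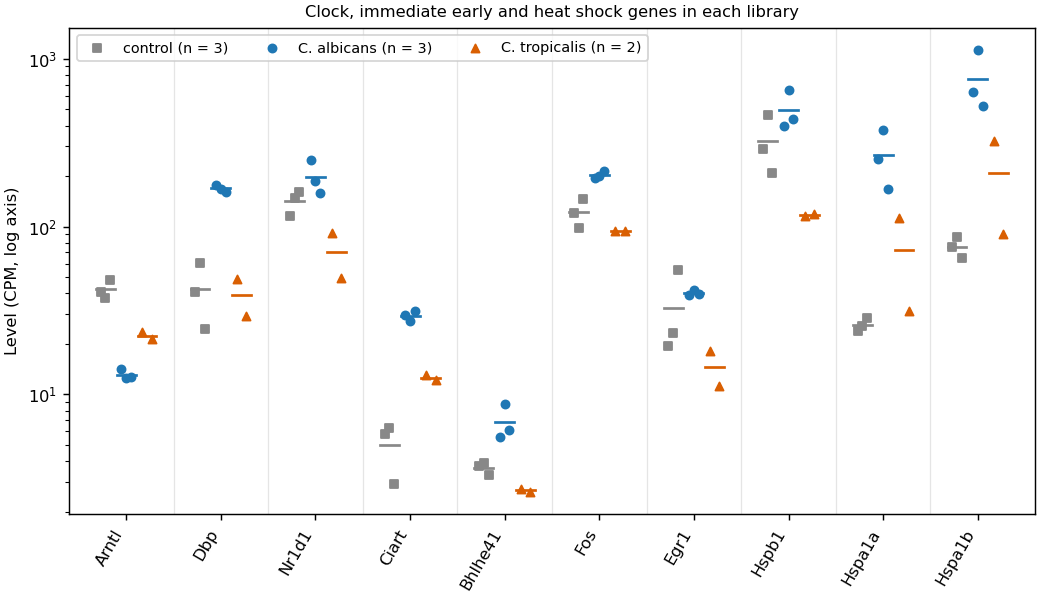
Levels in CPM (log axis) of clock genes (Arntl to Bhlhe41), immediate early genes (Fos, Egr1) and heat shock genes (Hspb1, Hspa1a, Hspa1b) in each library. Points are libraries and lines group means. The 3 C. albicans circles lie close together for Arntl, Dbp, Ciart and Fos, and the C. tropicalis triangles lie between controls and C. albicans for Arntl and Ciart and are spread for Hspa1a and Hspa1b.

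In metabolism, 17 of 25 tested xenobiotic genes were below 0 (median -0.24). At an adjusted p under 0.1, Fmo2 and Fmo5 were higher (background 2.13%) and 3 genes were lower (background 7.07%). Cyp2c55, a cytochrome P450 of the colon, stood at 52.2, 175 and 116 CPM in C. albicans and 7.54 and 13.1 CPM in C. tropicalis, a log2 difference of -3.47 ± 0.58 (adjusted p = 0.0646), with controls at 24.95 to 54.7 CPM. Fmo5 stood at 10.7, 11.02 and 7.56 CPM against 25.8 and 24.1 CPM, and Ugt1a1, the bilirubin glucuronosyltransferase, at 1.69, 3.99 and 3.84 CPM against 0.343 and 0.283 CPM.

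Fatty acid synthesis genes had a median of 0.25, with 9 of 14 above 0 and 2 lower at an adjusted p under 0.1 (background 7.07%). Acacb, the acetyl-CoA carboxylase tied to mitochondria, stood at 22.5, 51.9 and 36.1 CPM in C. albicans and 8.79 and 7.88 CPM in C. tropicalis (log2 difference -2.14 ± 0.38, adjusted p = 0.0646). Acly, which supplies cytosolic acetyl-CoA, stood at 477, 213 and 287 CPM against 705 and 616 CPM (1.02 ± 0.38, adjusted p = 0.158). So members of this one pathway pointed in opposite directions.

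Immune genes gave no count at an adjusted p under 0.1 for B cells, plasma cells, MHC class II or type I interferon. Of 21 B cell genes 20 were above 0 (median 0.83), but the controls spanned both species: Pax5, the B cell identity factor, stood at 3.32, 0.472 and 2.56 CPM in C. albicans, 4.57 and 6.35 CPM in C. tropicalis and 1.20, 21.1 and 16.99 CPM in control 1, 2 and 3 (log2 difference 1.37 ± 0.98, adjusted p = 0.446). How many lymphoid follicles each piece of tissue held is not in the labels. With the smooth muscle covariate the list median turned to -2.24 and with the Hoxd covariate to -1.41. The 12 MHC class II genes were all above 0 (median 0.32), with Cd74, the invariant chain, at 331, 179.8 and 217 CPM against 289.9 and 334 CPM, and their median turned to -1.23 and -0.71 with the same covariates.

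Of 15 tested plasma cell genes 13 were below 0 (median -0.52). Igha, the heavy chain of immunoglobulin A, stood at 2660, 1314 and 736 CPM in C. albicans, 1467 and 777 CPM in C. tropicalis and 378 to 1090 CPM in controls, so the species overlapped (adjusted p = 0.665). Type I interferon genes were below 0 in 16 of 21 (median -0.34), with Ifit2 at 5.62, 6.93 and 5.30 CPM against 2.51 and 2.78 CPM (adjusted p = 0.140), and their median was 0.31 with the Hoxd covariate. Of 7 tested granulocyte and mast cell genes 4 were below 0 (median -0.18), and the one under 0.1 was Kit, given above. The neutrophil genes S100a8 and S100a9 had 6 and 4 counts in all 8 libraries together. Ly6g, of the same list, ran higher, at 156, 21.6 and 77.4 CPM in C. albicans and 225 and 234 CPM in C. tropicalis. Its controls stood at 28.8, 172 and 133 CPM, and the log2 difference was 1.43 ± 0.78 (adjusted p = 0.306). Of 8 tested alarmin and type 2 genes 5 were below 0 (median -0.26), and Il4ra was the one under 0.1.

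Direct antifungal readouts, 14 genes listed whatever their values, showed no gene past the threshold, and 10 of them had enough counts to be tested. Il17a and Il22, the cytokines of mucosal antifungal defence, had 1 and 0 counts in all 8 libraries, Reg3b had 19 and S100a8 had 6. Duox2, the epithelial oxidase, stood at 107, 150 and 237 CPM in C. albicans, 85.2 and 74.9 CPM in C. tropicalis and 47.2 to 65.6 CPM in controls (log2 difference -1.04 ± 0.31, adjusted p = 0.0960), the one readout tested under 0.1. Clec7a, which encodes the beta-glucan receptor Dectin-1, and Card9, its signalling adaptor, stood at 0.997 to 1.52 and 1.37 to 2.53 CPM in C. albicans and 0.914 to 1.25 and 1.88 to 1.93 CPM in C. tropicalis, with adjusted p of 0.797 and 0.999. Reg3g, Lcn2, Nos2 and Pigr had adjusted p of 0.123, 0.779, 0.859 and 0.988, and Muc2, Retnlb and Igha are given above.

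Among the genes of fungal recognition, Tlr2, a receptor for fungal and bacterial surface lipids, was the member under 0.1, at 15.2, 17.1 and 13.8 CPM in C. albicans and 5.42 and 6.69 CPM in C. tropicalis (log2 difference -1.34 ± 0.29, adjusted p = 0.0658). The controls stood at 10.9 to 21.5 CPM, above both C. tropicalis libraries. Cxcl5, of the type 17 immunity list, is an epithelial chemokine that draws neutrophils. It stood at 0.112, 0 and 0 CPM against 1.83 and 1.70 CPM, and at 0, 0.179 and 1.08 CPM in control 1, 2 and 3. In all, 18 lists lay within 0.2 of the median of all genes, from -0.12 for colonocytes to 0.23 for chemokines, and among them T cells (-0.00), interferon-gamma (-0.01), type 17 immunity (0.18), oxidative phosphorylation (0.02) and cholesterol synthesis (-0.02). Some of these lists still held genes at an adjusted p under 0.1. Higher were 2 of 14 tested for type 17 immunity, 2 of 10 for small intestine or caecum, and 1 of 24 each for T cells and cholesterol synthesis (background 2.13%). In these 4 lists 0 genes were lower at 0.1.

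Base composition moved with the comparison. In the tenth of genes with the lowest GC content (29.6% to 41.4%) the median log2 fold change was 0.16 and 1.12% of genes were lower at an adjusted p under 0.1, while in the tenth with the highest (57.9% to 86.2%) the median was -0.22 and 17% were lower. With a correction for GC content, also chosen after seeing the data, the split at 0.1 was 700 higher and 803 lower in place of 343 and 1138. In that fit the smooth muscle, nerve and tuft cell medians were -1.51, -1.11 and -1.31. The part of base composition in the results was not tested.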

How the data were processed

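Colon RNA of 8 libraries was measured by RNA sequencing after a NEBNext Ultra kit that, per the labels' protocols, started from 3 µg of RNA. The values are raw counts of reads per gene as deposited by the authors. Tools named in the submitters' processing notes are HTSeq 6.1, TopHat2 2.0.12 and DESeq 1.18.0, with the build mm10, and how strand was counted is not given in the sources used here. Totals were 16195376 to 19761098 counts per library, so 3 counts, used as the floor, are 0.152 to 0.185 CPM of the raw total. All other CPM values use library sizes scaled by TMM.

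Counts were fitted over all 8 libraries in edgeR 4.0.16 (R 4.3.3) with filterByExpr, TMM scaling, a quasi-likelihood test of C. tropicalis minus C. albicans and Benjamini-Hochberg adjustment over 16107 genes, at a threshold of 0.05. The 2 comparisons with control share its libraries. limma 3.58.1, DESeq2 1.42.0 and other settings were alternatives. Gene positions are from GENCODE on GRCm38 and promoters from RefSeq on GRCm38.p6.

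The genes and 44 lists were chosen with earlier results of these data known. The rule named 10 genes in each direction by p, after the exclusions given above, up to 4 members of each list by p, and 14 readouts. The genes Hoxd11, Hoxd12, Hoxd13, Hoxa13, Hoxb13, Ciart, Ugt1a1, Adipoq, Krt19 and Slc26a3, the covariates of Hoxd and GC content, and the Ciart and Myl9 promoters were chosen after values were seen, as were list members named only as markers at or near 0. Reads of Dbp and Sphk2, Nr1d1 and Thra, Mcm7 and Cops6 or Ap4m1, Phox2a and Inppl1, Trpm5 and Tssc4, Plvap and Gtpbp3, Eng and Fpgs, Sult1a1 and Sgf29, Kcnmb1 and Kcnip1, Card9 and Gm13562, Adrb3 and Gm45470, Hoxa7 and Hoxaas3, and Hoxb6 and Hoxb5os cannot be told apart where the pairs overlap on opposite strands, since the kit keeps no strand. Results of some list members are not reported here.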

Additional observations from a re-analysis of the deposited data

How the results depend on the processing

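The count of 0 genes past an adjusted p of 0.05 was the same under DESeq2 size factors, upper-quartile scaling, limma-voom, a stricter filter, a minimum fold of 1.5 and the smooth muscle, Hoxd and GC fits, the last 2 added after the data had been seen. It was 1753 (362 higher, 1391 lower) in DESeq2, 1127 (187 and 940) with no filter, 858 (198 and 660) on the 5 libraries alone and 1481 (343 and 1138) at a threshold of 0.1. As each library was left out it ran from 0 to 1315 (0 to 263 higher, 0 to 1052 lower), with calls only without control 1, control 3 or C. albicans 1. The count at 0.1 was 2401 in DESeq2, 663 in limma-voom, 2386 on the 5 libraries, 2 with the smooth muscle covariate, 0 with the Hoxd covariate or the minimum fold, and 0 to 2522 as each library was left out. The cause of these shifts was not tested. The labels do not say whether the replicate numbers pair the libraries. Same-numbered deviations from the group means correlated at -0.392 to 0.156. These values cannot decide it, since the deviations of the 2 C. tropicalis libraries mirror each other. With the replicate block by number no gene passed 0.05 or 0.1, also with GC correction, and with the block by the letters of the library codes 3533 genes passed 0.05 (1267 and 2266) and 4248 passed 0.1, on 1 residual degree of freedom. Of 190 named genes 44 changed sign with the smooth muscle covariate and 21 with the Hoxd covariate, and of 44 lists 13 and 12. With 2 libraries of C. tropicalis and 3 of C. albicans, spread and not depth limits most genes, while values under about 1 CPM rest on few reads.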

Other observations

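Hsp90aa1, an abundant chaperone gene, was chosen after its values were seen and belongs to no pattern above. It was measured at 7.94, 177 and 154 CPM in control 1, 2 and 3, at 13.6, 408 and 16.6 CPM in C. albicans and at 501 and 413 CPM in C. tropicalis, so libraries of the same group differed more than 10-fold. Hspa8, its partner in protein folding, had a log2 difference of 0.57 ± 0.21 (SE) between the species (adjusted p = 0.142 in edgeR).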
